A study of Mus musculus with 14 samples.

Results

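Cytochrome P450 and glutathione transferase genes were examined in ribosome-bound RNA of hypothalamic POMC neurons. The set was the protein-coding rows of the deposited table whose symbol is that of a cytochrome P450 (Cyp followed by a family number, a subfamily letter and a gene number, with nothing after it), a cytosolic or mitochondrial glutathione transferase of the alpha, mu, pi, theta, omega or kappa class (Gst) or a microsomal one (Mgst). Symbols of another form, such as Cyp51 or Cyp3a41a, were not members. The set held 118 genes, 94 P450 and 24 Gst or Mgst genes, of 44672 genes in all and 21290 protein-coding ones.

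The study compared POMC Glp1r+ neurons, from mice with the genotype POMCDre+/- Glp1rCre+/- ROSA26lSlrSrEGFPL10a+/-, with POMC Lepr+ neurons, from POMCDre+/- LeprCre+/- ROSA26lSlrSrEGFPL10a+/- mice. All mice were random-fed adults with no further treatment, and all carried the Dre recombinase under the POMC promoter together with 1 Cre allele and the ribosomal reporter allele. The reporter, an EGFP-tagged L10a ribosomal protein, is made only after both recombinases have acted, so the anti-EGFP pulldown (IP) was drawn from cells that had expressed both drivers at any earlier time. There were 3 pools of POMC Glp1r+ mice, each of 6 males and 6 females, and 4 pools of POMC Lepr+ mice, each of 3 males and 3 females. Each pool gave an IP library and an input library of the tissue before pulldown, 14 libraries in all. The methods name whole hypothalami and the series record a dissected arcuate nucleus, so the tissue behind the input is not settled.

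The quantity described here is the authors' mean of the IP/input ratio over all 7 pools of both lines, given below as a ratio. A ratio of 1 is IP equal to input. As a single pooled value per gene it carries no spread between pools and does not separate the lines, so no error, n or test goes with any ratio, and a high mean can come from 1 pool. It is not scaled to library size and is not a measure of abundance. The depth behind each ratio is unknown, as no read totals entered the analysis. A ratio can move with the number of cells of a type or with the RNA in each cell, and these cannot be told apart. The other columns of the table hold the authors' comparison of the lines and were not used.

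P450 enzymes are haem proteins that use oxygen and electrons, handed on by P450 reductase in the endoplasmic reticulum or by ferredoxin in mitochondria, to hydroxylate or epoxidise their substrates. A branch of them makes and breaks down steroids, bile acids, vitamin D and retinoic acid, while the families Cyp1 to Cyp4 largely handle foreign compounds and fatty acids and are best known from liver. Glutathione transferases join the tripeptide glutathione to reactive products, many of them made by P450 enzymes. In brain, both groups are known from glia and blood vessels as well as from neurons.

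The pulldown showed its target cells. The 4 POMC neuron markers Pomc, Cartpt, Prdm12 and Tbx3 had ratios of 20.4 to 172, with a median of 31.4. The median ratio was 1.52 for 6 pan-neuronal genes, 0.409 for 6 astrocyte genes, 0.474 for 6 oligodendrocyte genes, 0.472 for 5 microglia genes, 0.924 for 5 endothelial genes, 0.582 for 6 mural and leptomeningeal genes and 0.657 for 5 genes of tanycytes and ependyma. Every astrocyte, oligodendrocyte and microglia marker listed lay below 1. The other lists were mixed. Above 1 lay 1 of 5 endothelial genes (Pecam1, 1.55) and 2 of 6 mural and leptomeningeal genes (Acta2, 1.43, and Col1a1, 1.09). So did 1 of 5 genes of tanycytes and ependyma, Vim at 3.90, and 1 of 6 pan-neuronal genes lay below 1, Syt1 at 0.775.

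Of the 118 members, 36 had a ratio of exactly 1, the value of a gene with equal counts in IP and input, and also of a gene with no reads in any library if, as the steps between low values point to, 1 was added to each count. Ratios above and below 1 in different pools can also average to exactly 1. The 36 members were 35 P450 genes and Gstp3, a pi class transferase. The share at exactly 1 was 37.2% for P450 genes and 4.17% for Gst and Mgst genes, against 13.7% of protein-coding genes. The Cyp2c, Cyp2d and Cyp3a genes, large subfamilies of liver drug metabolism in mice, had 21 of their 30 members at exactly 1, with 10 of 15 in Cyp2c, 6 of 8 in Cyp2d and 5 of 7 in Cyp3a. Cyp7a1, the rate-limiting enzyme of bile acid synthesis, and Cyp21a1, the steroid hydroxylase of the adrenal cortex, also stood at exactly 1. The counts and medians below are over the 82 members with another ratio, 59 P450 and 23 Gst or Mgst genes, and over the 18379 protein-coding genes not at exactly 1.

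Among these 82 members, 36 (43.9%) had a ratio above 1 and 46 (56.1%) below 1, where protein-coding genes had 62.4% above and 37.6% below. At least 2-fold above input were 8 members (9.76%), beside 8.95% of protein-coding genes. At least 2-fold below input were 11 members (13.4%), beside 4.85% of protein-coding genes. The median ratio was 0.916 for all members, 0.905 for P450 genes and 1.35 for Gst and Mgst genes, against 1.14 for protein-coding genes. The Gst and Mgst median was 0.803 without the members that share over 10% of their transcript sequence with another gene. With genes at exactly 1 kept, the medians were 1.0 for P450 genes, 1.23 for Gst and Mgst genes and 1.05 for protein-coding genes. At or below the lower quartile of protein-coding genes (0.868) lay 39 of the 82 members (47.6%), and at or above the upper quartile (1.48) lay 20 (24.4%). P450 genes contributed 29 to the low end and 10 to the high end. The 23 Gst and Mgst genes lay mostly at the ends, with 10 at the low end, 10 at the high end and 3 in between. These are descriptions of the members beside all genes, with no test.

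**Figure D1:**
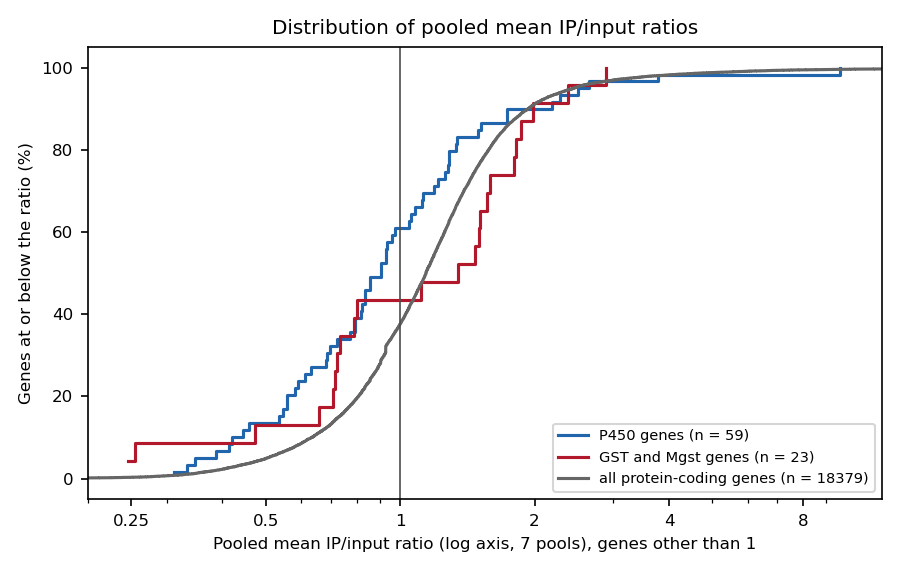
Share of genes (vertical axis, percent) at or below each pooled mean IP/input ratio (horizontal axis, log scale) for 59 P450 genes, 23 Gst and Mgst genes and 18379 protein-coding genes, all not at exactly 1. The P450 curve lies to the left of the protein-coding curve over most of its range, with medians of 0.905 and 1.14, and the Gst and Mgst curve is nearly flat around 1.

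The ratio was highest for Cyp4b1 and lowest for Mgst1, and the region around their start sites is given as the sequence context of these extremes. The neighbouring genes Gstp2 and Gstp1 are added because their ratios both lay above 1 and their transcripts are partly identical. The windows come from RefSeq on GRCm38.p6, run 5′ to 3′ on the strand of the gene, and hold 300 bases each. For Mgst1 the first of its 2 windows is given. Capitals mark matches, on either strand, to 2 motifs: TGACNNNGC, the core of the antioxidant response element bound by Nfe2l2 (NRF2), and GCGTG, the core of the site bound by the aryl hydrocarbon receptor.
Cyp4b1, chr4:115647672-115647971, minus strand: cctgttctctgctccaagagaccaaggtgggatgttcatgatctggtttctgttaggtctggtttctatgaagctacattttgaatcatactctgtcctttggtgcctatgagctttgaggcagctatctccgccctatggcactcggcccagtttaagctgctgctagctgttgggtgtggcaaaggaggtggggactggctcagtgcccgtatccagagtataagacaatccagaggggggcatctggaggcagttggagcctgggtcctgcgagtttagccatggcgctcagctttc
Mgst1, chr6:138140277-138140576, plus strand: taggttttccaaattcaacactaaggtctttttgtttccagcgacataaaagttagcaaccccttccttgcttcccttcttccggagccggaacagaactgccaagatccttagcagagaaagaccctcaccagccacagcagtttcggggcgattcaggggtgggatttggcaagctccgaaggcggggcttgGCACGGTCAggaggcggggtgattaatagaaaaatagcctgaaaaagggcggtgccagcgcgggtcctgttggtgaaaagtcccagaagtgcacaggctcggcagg
Gstp2, chr19:4042172-4042471, minus strand: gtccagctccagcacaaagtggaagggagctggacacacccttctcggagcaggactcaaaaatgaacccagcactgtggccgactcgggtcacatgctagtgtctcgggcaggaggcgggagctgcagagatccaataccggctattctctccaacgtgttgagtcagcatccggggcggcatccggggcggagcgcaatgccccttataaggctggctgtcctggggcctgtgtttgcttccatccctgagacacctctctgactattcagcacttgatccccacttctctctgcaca
Gstp1, chr19:4037863-4038162, minus strand: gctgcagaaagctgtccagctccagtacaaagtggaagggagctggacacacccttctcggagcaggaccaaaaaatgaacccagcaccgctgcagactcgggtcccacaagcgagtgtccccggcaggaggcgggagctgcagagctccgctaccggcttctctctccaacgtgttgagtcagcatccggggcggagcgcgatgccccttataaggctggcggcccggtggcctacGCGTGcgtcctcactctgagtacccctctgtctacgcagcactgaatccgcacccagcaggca

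The Cyp4b1 and Gstp2 windows held neither motif, the Mgst1 window held TGACNNNGC on the opposite strand, and the Gstp1 window held GCGTG. A window was found for 95 of the 118 members, 113 windows in all. TGACNNNGC occurred in 9.73% of the members' windows, in 11 members, and in 12.4% of all 32851 windows. GCGTG occurred in 22.1% of the members' windows, in 23 members, and in 32.4% of all windows. The motifs can share letters at their ends, and a match is a run of letters and not a shown binding site. In a global alignment the Gstp2 and Gstp1 windows were identical at 77.3% of aligned columns, and the Cyp4b1 and Mgst1 windows at 49.5%.

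Cyp4b1, a fatty acid hydroxylase known for activating plant toxins in lung, had a ratio of 9.64, at percentile 99.6 of protein-coding genes. It lies on chr4:115624725-115647723 (GRCm38). Multiplied by 1000 and summed over pools, its ratios gave 67500, a multiple of 500, as libraries with at most 1 input read in every pool would give, so its fold may rest on almost no input reads. Such multiples were the sums of 7 of the 82 members (8.54%) and of 4.18% of protein-coding genes, and of the 8 members at least 2-fold above input they were those of Cyp4b1 and Cyp2b13. The second highest ratio was 3.77, for Cyp2d26, a member of a subfamily of drug-metabolising enzymes. Cyp24a1, which inactivates the hormone form of vitamin D, had a ratio of 2.65, and that of Cyp2t4 was 2.51. Cyp2b13 had a ratio of 2.29, and Cyp2a5, which hydroxylates coumarin and nicotine, 2.18. The ratio of Cyp2b13 is a value that libraries of at most 2 reads each can give. Together with Gstp2 at 2.89 and Gstm6 at 2.38 these are the 8 members at least 2-fold above input, and the nearest member outside was Gstm4 at 1.98. Cyp2b19, of the same subfamily as Cyp2b13, had 1.73.

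The lowest P450 ratio was that of Cyp2f2, the enzyme of airway club cells that activates naphthalene, at 0.311, or 3.21-fold below input. Cyp4v3, the mouse counterpart of a human fatty acid hydroxylase mutated in a retinal dystrophy, had 0.334. Cyp2d22 had a ratio of 0.348, and Cyp11b1, which completes corticosterone synthesis in the adrenal cortex, 0.387. In the Cyp2j subfamily, which epoxidises arachidonic acid, the ratios included 0.413 for Cyp2j6, 0.421 for Cyp2j9 and 0.460 for Cyp2j12. Cyp4f14, of a subfamily that hydroxylates leukotrienes and fatty acids, had 0.445. With Mgst1, Gstk1 and Gstt3 these made the 11 members at least 2-fold below input. Cyp1b1 at 0.534 lay just outside, followed by Cyp4f15 at 0.548, a value that few reads can give. These 11 ratios ran from 0.246 to 0.472, beside medians of 0.409 for astrocyte, 0.474 for oligodendrocyte and 0.472 for microglia markers. The medians were 0.582 for mural and leptomeningeal, 0.657 for tanycyte and ependymal, 0.924 for endothelial and 1.52 for pan-neuronal markers. Of those lists, Lum (mural and leptomeningeal) at 0.339 and Ccdc153 (tanycytes and ependyma) at 0.465 lay in the same range. The part of any cell type in the 11 ratios was not tested.

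**Figure D2:**
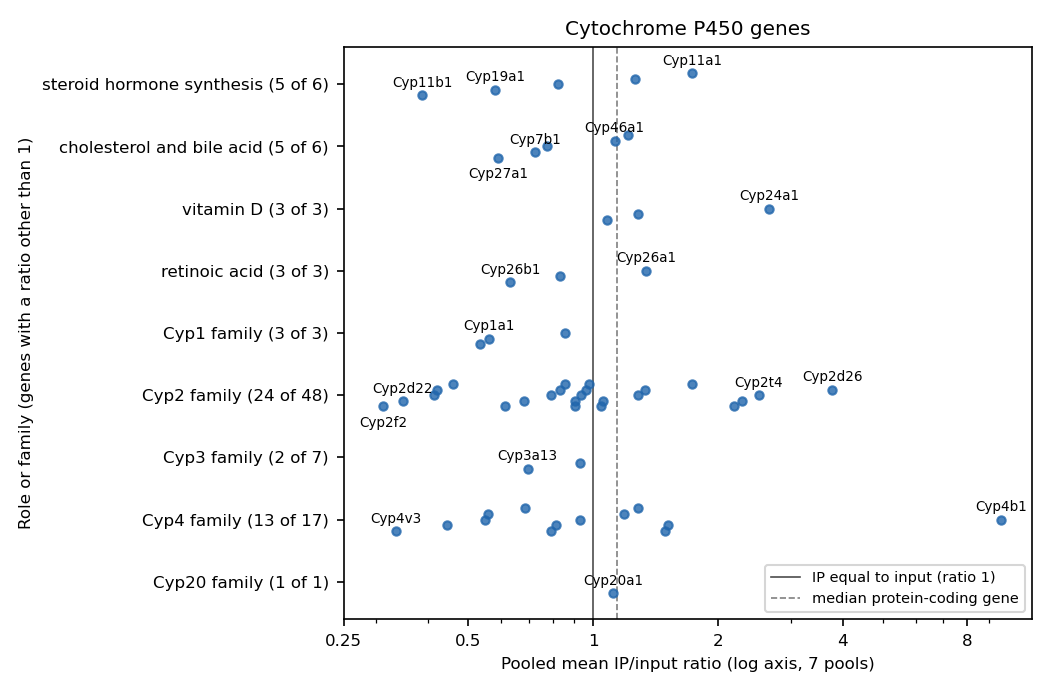
Pooled mean IP/input ratio (horizontal axis, log scale) of each P450 gene with a ratio other than 1, 1 point a gene, by role or family. Cyp4b1 at 9.64 stands to the right of all others, and Cyp24a1 at 2.65 is the highest gene with a set role.

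Among P450 genes of steroid hormone synthesis, 2 of 5 lay above 1 and 3 below, with a median of 0.821. Protein-coding genes had 62.4% above 1 and 37.6% below. Cyp11a1, which cuts the side chain of cholesterol to open the pathway, had a ratio of 1.73 and Cyp11b2, the aldosterone synthase, 1.26. Cyp17a1, which leads to androgens, had 0.821, and Cyp19a1, the aromatase that makes oestrogens and is known from hypothalamic neurons, 0.581. Cyp11b1 and Cyp11b2 are neighbours on chromosome 15 that share 22.6% and 25.3% of their transcript sequence (counted as words of 31 bases) with another gene, so both ratios are uncertain.

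Genes of cholesterol and bile acid turnover had a median of 0.774, with 2 of 5 above 1, beside 62.4% of protein-coding genes. Cyp46a1, the neuronal cholesterol hydroxylase through which brain disposes of cholesterol, had a ratio of 1.13, close to the 1.14 of the median protein-coding gene. Cyp39a1, which acts on the product of Cyp46a1, had 0.774. Cyp7b1, an oxysterol hydroxylase, had 0.723 and Cyp27a1, the mitochondrial sterol hydroxylase, 0.591. Cyp8b1, which is needed for cholic acid, had 1.21, a value that few reads can give.

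The 3 vitamin D genes lay above 1, as did 62.4% of protein-coding genes. Beside Cyp24a1 at 2.65, Cyp27b1, which makes the active hormone, had 1.29 and Cyp2r1, which makes the circulating form, 1.08, under the 1.14 of the median protein-coding gene. The Cyp27b1 value is again within reach of few reads. The retinoic acid hydroxylases of the Cyp26 family did not share a side, at 1.34 for Cyp26a1, 0.632 for Cyp26b1 and 0.833 for Cyp26c1, a value that few reads can give. The 3 Cyp1 genes, targets of the aryl hydrocarbon receptor, lay below 1, as did 37.6% of protein-coding genes. Their ratios were 0.559 for Cyp1a1, 0.857 for Cyp1a2 and 0.534 for Cyp1b1, and the Cyp1a2 value can come from few reads. Cyp20a1, a P450 with no settled substrate, had 1.12.

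The large families were spread on both sides. Cyp2 had 9 of 24 genes above 1 and a median of 0.919, and Cyp4 had 5 of 13 above 1 and a median of 0.815. Beside these counts and those of the clusters below, protein-coding genes had 62.4% above 1 and 37.6% below. Of the 7 Cyp3 genes, all of the Cyp3a subfamily, 2 had a ratio other than 1, Cyp3a13 at 0.695 and Cyp3a57 at 0.929, the second of which few reads can give. Genes that lie side by side often differed. In the Cyp2d cluster on chr15:82370527-82794294, the genes at its ends, Cyp2d26 and Cyp2d22, had 3.77 and 0.348, and the 6 genes between them stood at exactly 1. On chr7:25802475-27158668, a cluster of 13 Cyp2 genes, Cyp2t4 (2.51) was the member next to Cyp2f2 (0.311), and 4 of 8 ratios lay above 1. In the Cyp2j cluster on chr4:96027534-96664154, 5 of 6 ratios lay below 1, with Cyp2j8 at 1.33 the exception. In the Cyp4f cluster on chr17:32452723-32947402, 5 of 7 lay below 1. Cyp4b1 closes a cluster of 7 genes on chr4:115106323-115647723 in which Cyp4a31 had 1.52, Cyp4x1 1.49 and Cyp4a10 0.791, and the other 3 stood at exactly 1.

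The transferases divided within most classes. Of the pi class, which detoxifies electrophiles and binds the kinase Jnk, Gstp2 had a ratio of 2.89 and Gstp1 1.80. Of the mu class, a cluster of 7 genes on chr3:107895821-108044894, 5 lay above 1 and 2 below, beside 62.4% and 37.6% of protein-coding genes. Gstm6 had 2.38, Gstm4 1.98, Gstm3 1.82, Gstm7 1.56 and Gstm5 1.47, while Gstm2 had 0.660 and Gstm1, an abundant transferase of astrocytes, 0.708. Of the alpha class, Gsta1 had 1.87 and Gsta2 1.498, against 0.803 for Gsta3, whose human counterpart carries out an isomerase step of steroid synthesis, and 0.713 for Gsta4, which conjugates the lipid peroxidation product hydroxynonenal. Gsta4, Gsta1 and Gsta2 are neighbours on chromosome 9.

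Both omega transferases, which reduce dehydroascorbate and arsenic compounds, lay above 1, at 1.59 for Gsto1 and 1.51 for Gsto2. Among protein-coding genes 62.4% lay above 1 and 37.6% below. Of the theta class, on chr10:75774115-75837424, Gstt2 had 1.35 and the other 3 lay below 1, with Gstt4 at 0.735, Gstt1 at 0.721 and Gstt3 at 0.472. Gstk1, the kappa transferase of mitochondria and peroxisomes, had 0.255, or 3.92-fold below input. Mgst1, a membrane protein of the endoplasmic reticulum and outer mitochondrial membrane with transferase and peroxidase activity, had 0.246, or 4.07-fold below input and at percentile 0.28 of protein-coding genes. Mgst2, which can make leukotrienes, had 0.788 and Mgst3 had 1.11. The ratios of Gstk1 and Mgst1 lay below those of every cell type marker listed, of which the lowest was 0.326 for Slc1a3, an astrocyte gene.

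**Figure D3:**
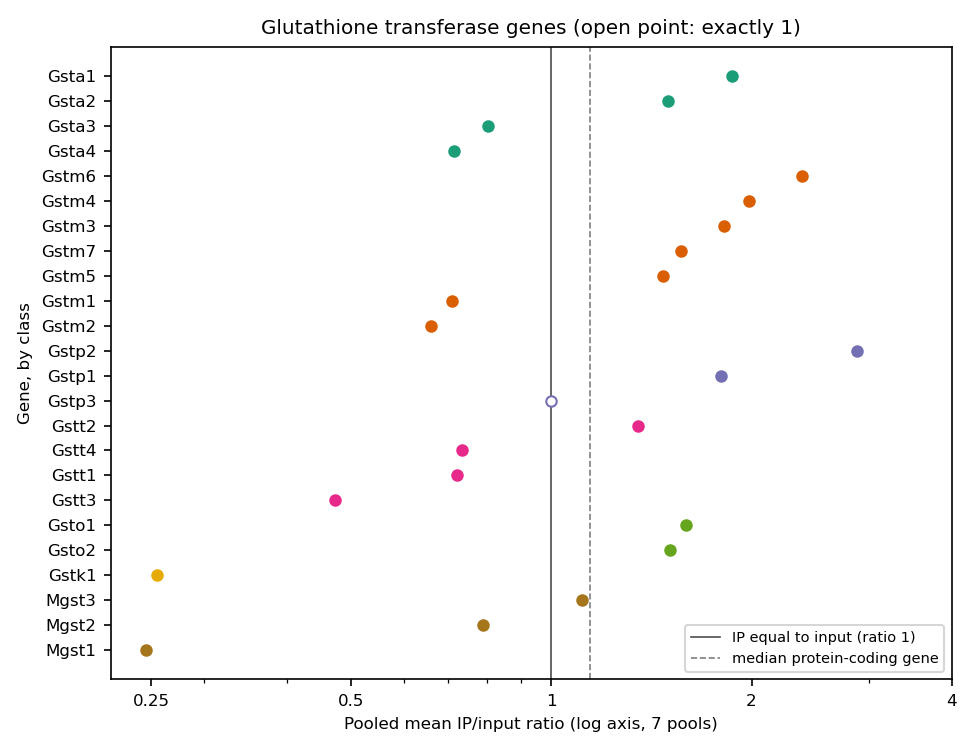
Pooled mean IP/input ratio (horizontal axis, log scale) of the 24 Gst and Mgst genes, ordered by class, with Gstp3 at exactly 1 as an open point. Gstp2 at 2.89 is the highest, Mgst1 at 0.246 and Gstk1 at 0.255 are the lowest, and both omega genes lie above 1.

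Many members share part of their transcript sequence with another gene, and reads of shared sequence can be assigned to either gene. Of the 118 members, 13 (11.0%) shared over 50% of the 31-base words of their transcripts with another annotated gene, and 60 (50.8%) over 10%. A share over 10% was found for 30 of the 36 members at exactly 1 and 30 of the other 82 (36.6%). Among the latter were 6 of the 8 at least 2-fold above input and 3 of the 11 at least 2-fold below. The same share was not computed over all protein-coding genes, so these counts have no comparison outside the set. Of the 8, Cyp24a1 and Cyp2t4 were the exceptions, at 1.56% and 0%. The shared part was 92.2% for Gsta1, 56.9% for Gstp2, 57.8% for Gstp1 and 56.3% for Cyp2a5. It was 16.3% for Cyp2d26 and 13.9% for Cyp4b1, in which the nearest copy was the pseudogene Cyp4b1-ps2. It was 0% for Mgst1 and 1.56% for Gstk1. Over members that share up to 10%, the median of the Gst and Mgst genes was 0.803, on the other side of 1. That median is the ratio of Gsta3, and the next ratio above it among these genes was 1.11, for Mgst3. These genes thus split nearly evenly around 1. The ratios of Gstp1, Gstp2, Gsta1, Gsta2 and Cyp2a5, which each share over 50%, are best read as uncertain. Those of other members that share over 10% are less certain too.

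**Figure D4:**
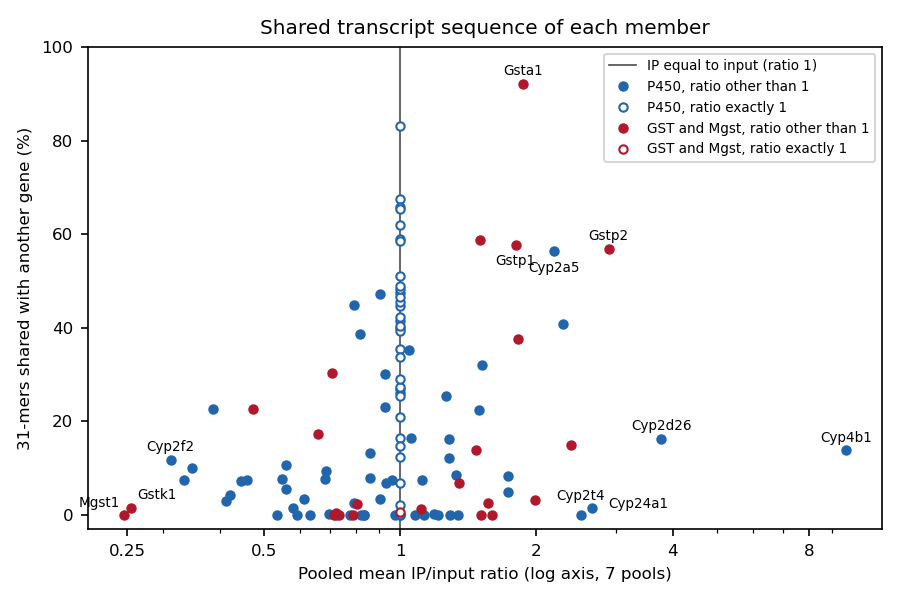
Share of each member's transcript 31-base words found in another annotated gene (vertical axis, percent) against its pooled mean IP/input ratio (horizontal axis, log scale), 1 point a gene, with open points at a ratio of exactly 1. Points at exactly 1 mostly lie above 10%, while Mgst1 and Gstk1 lie near 0% and Cyp4b1 at 13.9%.

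Few reads may stand behind some ratios, though no read counts were used. The sums over pools of 14 of the 82 members (17.1%) are values that at most 2 reads in every library can give, as are those of 1348 of 18379 protein-coding genes (7.33%). Of whole numbers over the same range, 1.32% are such values. The sums of genes are not spread evenly over that range, so 1.32% is not an expected share. Of the members at least 2-fold from input, Cyp2b13 had such a sum, and the sum of Cyp4b1 has the form that near-empty inputs give. The sums of Cyp4b1, Cyp2d26, Cyp2f2, Gstk1 and Mgst1 lie outside the range of such values, so these genes could not be flagged. The lack of such a sum does not show that a ratio rests on many reads.

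The partners of these enzymes and the genes of glutathione metabolism were described as a list of 45 genes, all with a ratio other than 1. Of them, 30 (66.7%) lay above 1 and 15 (33.3%) below, beside 62.4% and 37.6% of protein-coding genes, and the median was 1.12, beside 1.14. At least 2-fold above input were 6 (13.3%), beside 8.95%, and at least 2-fold below were 4 (8.89%), beside 4.85%. The highest were Gpx3, a secreted glutathione peroxidase, at 6.66, Nr1i3, a nuclear receptor that drives Cyp2b genes in liver, at 3.55, and Cyb5r3, which reduces cytochrome b5, at 3.15. The lowest were Nfe2l2, the factor of the antioxidant response, at 0.369, Slc7a11, the cystine carrier that feeds glutathione synthesis, at 0.430, and Ggt1, which breaks down glutathione outside cells, at 0.454. Por, the P450 reductase, had a ratio of 1.59 and Fdx1, the mitochondrial ferredoxin, 1.55. Por and Fdx1 were named outside the rule, after their values were seen, as the electron donors of the P450 enzymes. Of related genes on the list, Cyb5b had 1.31, Cyb5a 1.09 and Fdxr 1.07, the last 2 under the 1.14 of the median protein-coding gene.

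**Figure D5:**
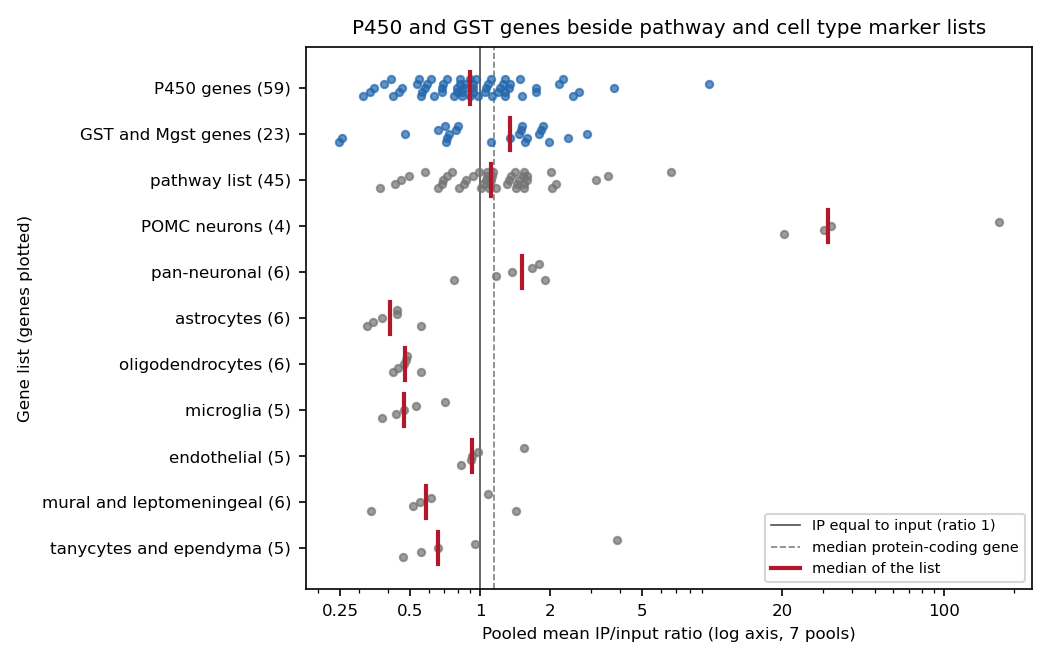
Pooled mean IP/input ratio (horizontal axis, log scale) of P450 genes, Gst and Mgst genes, the 45 pathway genes and marker lists of cell types, 1 point a gene, with a red bar at the median of each list. The POMC neuron markers lie from 20.4 to 172, the astrocyte markers have a median of 0.409, and the P450 and Gst genes spread across both sides of 1.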

How the data were processed

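Ribosome-bound (IP) and input RNA of 7 pools was sequenced by the study in 14 libraries. According to the methods and the submitters' processing notes, the authors aligned reads to GRCm38.p6 with STAR, estimated gene counts with Salmon 0.14.1, took the IP/input ratio of the counts per pool and tested the lines against each other in DESeq2 1.26.0. The methods and the labels name different Ensembl releases.

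The deposited mean, used here as a score, is the authors' mean of these ratios over all pools, multiplied by 1000. Multiplied by 7 it was whole in 100% of 44672 rows (tolerance 1e-06), and steps of -500 and 1000 from the value for a ratio of 1 are those that single reads give if 1 was added to counts. The remaining columns hold the authors' fold changes, standard errors, statistics and p-values between lines, and were not used. No library value was used, so no test or spread was computed.

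Members were compared with protein-coding genes by counts and medians over ratios other than exactly 1. Shared sequence was the share of 31-base words of GENCODE M21 transcripts found in another gene on either strand, and all 118 members had transcripts. The word search and the list of few-read sums were tested on simulated data. Protein sequences were not used here. Alternatives were the centre, filters, fold thresholds and shared sequence. Members and lists were chosen with earlier results of these data known. Any member could be named, always the 10 highest and 10 lowest P450 ratios, genes of the 4 role groups and all Gst and Mgst genes, with the 3 highest and 3 lowest pathway genes. Python 3.11.15, numpy 2.4.6, pandas 2.3.3, matplotlib 3.10.9 and Biopython 1.88 were used.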

Additional observations from a re-analysis of the deposited data

How the results depend on the processing

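Of 26 alternatives to 6 results, 19 stayed within 1.5 times the count or within the spread of ratios, 6 moved a count further and 1 turned a direction. A 1.5-fold threshold put 18 members above and 20 below input, and a 3-fold threshold 2 above and 3 below, where the 2-fold one gave 8 and 11. Leaving out members that share over 10% of their transcript words, a choice made after seeing the data, left 18 members above 1 (36 with them), 2 at least 2-fold above input (8 with them) and a Gst and Mgst median of 0.803 (1.35 with them). The cause was not tested. It left 34 members below 1 and 8 at least 2-fold below, against 46 and 11. Centring on the median protein-coding gene (ratio 1.14) gave 30 members above and 52 below, and, as an alternative added after seeing the data, 6 and 15 at least 2-fold from it. The filter on few-read sums, also added later, left 31 above and 37 below 1, and 7 and 11 at the 2-fold threshold. That filter could not remove Cyp4b1, Cyp2d26, Cyp2f2, Gstk1 or Mgst1, whose sums lie outside the range it covers. The counts it left at the 2-fold threshold were thus partly fixed in advance. No paired analysis was possible because the column used pools all libraries, and for the same reason no replicate could be left out. Unknown depth, and a mean that 1 pool can carry, limit every ratio.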

Other observations

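The rule for members left out 27 rows named for the same families, of which 16 had a ratio of exactly 1. They comprised 8 protein-coding genes, 18 pseudogenes and 1 long noncoding RNA. Of the protein-coding ones, Cyp51, the demethylase of cholesterol synthesis, had a pooled mean IP/input ratio of 1.12, Gstz1, which acts in tyrosine breakdown, 1.43, and Gstcd 0.993. Cyp4a12b had 0.690, and the similarly named Cyp4a12a stood at exactly 1.

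Among the pseudogenes, Cyp4a28-ps had a ratio of 2.68, while Cyp4a29, with 28.3% of its 31-base words found in Cyp4a28-ps, stood at exactly 1. Cyp4f41-ps had 1.87 and Gstm2-ps1 1.57, against 0.708 for Gstm1, which shares 23.8% of its words with Gstm2-ps1. Cyp4x1os, a transcript that shares 10.2% of the words of Cyp4x1, had 0.676 where Cyp4x1 had 1.49. Whether reads of these pairs were divided correctly was not tested.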
